A study of Mus musculus with 141 samples.

Results

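Branched-chain amino acid (BCAA) catabolism was followed through 10 genes in subcutaneous adipose tissue, given here as the inguinal white depot (iWAT) of the Hybrid Mouse Diversity Panel (HMDP). The genes were taken by name and are 10 of the 36558 genes in the deposited tables. They are described in 67 female and 74 male RNA-seq libraries from 82 inbred strains, with 1 library per sex and strain. All mice had eaten a diet rich in fat and sucrose (HF/HS) for 8 weeks, starting at an age of 8 weeks, and food was withheld for 4 h before the tissue was taken. The strains fall into the BXD set (32 female and 34 male libraries, recombinant inbred strains from C57BL/6J and DBA/2J), the AXB/BXA set (9 and 11, from A/J and C57BL/6J), the BXH set (2 and 3), the CXB set (3 and 3) and classical inbred strains (21 and 23). By its name, BXD24/TyJ-Cep290<rd16>/J, counted in the BXD set, carries the rd16 allele of Cep290. The name of BTBR T<+> tf/J, counted as classical, gives the alleles T<+> and tf. AXB19/PgnJ, AXB19a/PgnJ and AXB19b/PgnJ are substrains of each other by name and were counted as separate strains. Both sexes were present in 59 strains. The labels do not say more of each library than its mouse number, strain, sex and tissue, so that strains serve as the replicates and any spread between mice of a strain is part of the error.

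Leucine, isoleucine and valine are broken down in mitochondria. A transaminase first turns them into branched-chain keto acids, the branched-chain keto acid dehydrogenase (BCKDH) complex then decarboxylates these in an irreversible step, and separate dehydrogenases and carboxylases carry the products to acetyl-CoA and to propionyl-CoA, which enters the citric acid cycle as succinyl-CoA. White adipose tissue carries out this pathway, and in adipocytes it supplies carbon for fatty acid synthesis.

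The 10 genes cover the pathway from its first step to propionyl-CoA. Coordinates are those of GRCm38. Bcat2, the mitochondrial branched-chain aminotransferase, is ENSMUSG00000030826, chr7:45570153-45589711, plus strand. The BCKDH complex is represented by Bckdha and Bckdhb, the alpha and beta subunits of its decarboxylase, and by Dbt, its transacylase core. Bckdha is ENSMUSG00000060376, chr7:25629946-25658981, minus strand, Bckdhb is ENSMUSG00000032263, chr9:83925145-84124240, plus strand, and Dbt is ENSMUSG00000000340, chr3:116513070-116549981, plus strand. Ivd, the isovaleryl-CoA dehydrogenase of leucine breakdown, is ENSMUSG00000027332, chr2:118861954-118882909, plus strand. Acadsb, which dehydrogenates the short branched acyl-CoA of isoleucine, is ENSMUSG00000030861, chr7:131410601-131448944, plus strand. In valine breakdown, Hibadh oxidises 3-hydroxyisobutyrate and Aldh6a1 turns methylmalonate semialdehyde into propionyl-CoA. Hibadh is ENSMUSG00000029776, chr6:52546228-52640389, minus strand, and Aldh6a1 is ENSMUSG00000021238, chr12:84430717-84451004, minus strand. Pcca and Pccb are the alpha and beta subunits of propionyl-CoA carboxylase. Pcca is ENSMUSG00000041650, chr14:122534324-122891100, plus strand, and Pccb is ENSMUSG00000032527, chr9:100982032-101034898, minus strand.

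Promoter windows of 300 bases around the transcription start were taken from RefSeq (build GRCm38.p6), and 9 of the 10 genes matched, Dbt being the exception. They were searched on both strands for the CCAAT box (CCAAT), the GC box (GGGCGG), the C/EBP core (TTGCNNAA, N being any base), the estrogen-related receptor element (TCAAGGTCA), the NRF1 core and the DR1 element of nuclear receptors. A CCAAT box stood in 5 of the 9 windows (Bckdhb, Ivd, Hibadh, Aldh6a1 and Pcca) and in 37.4% of all 32851 promoter windows of the same length. A GC box stood in 4 of the 9 (Bckdhb, Acadsb, Hibadh and Pcca) and in 35.7% of all windows. The C/EBP core was found in 1 of the 9, that of Acadsb, and in 10.8% of all windows. None of the 9 held the NRF1 core, the estrogen-related receptor element or the DR1 element, which occurred in 0.971%, 0.423% and 0.0396% of all windows. The windows of 4 genes are shown because their levels carry the results on strains and co-variation. Bckdhb (chr9:83924887-83925186, plus strand) and Ivd (chr2:118861744-118862043, plus strand) are 2 of the 5 genes that differed between strains, and Acadsb (chr7:131410351-131410650, plus strand) and Aldh6a1 (chr12:84450975-84451274, minus strand) had the highest correlation in males. Each runs 5′ to 3′, and capitals mark matches to the searched letters on either strand. In the Acadsb window 1 pair of matches to the GC box overlapped.
Bckdhb: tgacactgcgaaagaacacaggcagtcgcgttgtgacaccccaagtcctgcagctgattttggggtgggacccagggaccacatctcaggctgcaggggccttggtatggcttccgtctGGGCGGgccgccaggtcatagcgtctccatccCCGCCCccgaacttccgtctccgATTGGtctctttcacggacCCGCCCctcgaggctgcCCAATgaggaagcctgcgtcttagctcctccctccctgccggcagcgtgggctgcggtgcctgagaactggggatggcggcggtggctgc
Ivd: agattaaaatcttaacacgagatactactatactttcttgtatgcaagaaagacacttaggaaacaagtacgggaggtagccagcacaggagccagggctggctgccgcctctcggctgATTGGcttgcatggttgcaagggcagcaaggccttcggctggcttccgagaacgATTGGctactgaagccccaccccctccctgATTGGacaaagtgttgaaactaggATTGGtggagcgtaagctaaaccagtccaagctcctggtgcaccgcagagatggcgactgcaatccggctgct
Acadsb: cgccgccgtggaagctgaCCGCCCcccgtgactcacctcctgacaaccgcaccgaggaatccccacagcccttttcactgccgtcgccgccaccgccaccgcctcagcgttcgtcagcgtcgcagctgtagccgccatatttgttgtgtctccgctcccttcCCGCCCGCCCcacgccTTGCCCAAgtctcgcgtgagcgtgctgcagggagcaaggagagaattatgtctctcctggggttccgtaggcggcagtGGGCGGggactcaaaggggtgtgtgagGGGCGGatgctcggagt
Aldh6a1: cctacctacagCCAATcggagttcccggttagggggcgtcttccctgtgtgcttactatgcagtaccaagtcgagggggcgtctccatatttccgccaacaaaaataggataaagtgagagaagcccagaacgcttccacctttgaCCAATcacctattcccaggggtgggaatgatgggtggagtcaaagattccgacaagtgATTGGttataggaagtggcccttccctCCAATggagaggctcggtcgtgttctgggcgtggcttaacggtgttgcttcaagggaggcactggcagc

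All 10 genes were expressed in every library, and the lowest estimated count of any of them was 157, for Bckdhb. Libraries held from 6269154 to 78562648 estimated counts, with a median of 30233245. The adipocyte markers Adipoq, Plin1, Plin4, Cidec and Fabp4 were high throughout, with a mean from 8.72 to 12.2 log2 CPM over the list in females and from 9.93 to 12.2 in males. The Y-linked genes (Uty, Kdm5d, Ddx3y and Eif2s3y) went against the sex label in 3 libraries. These were the female libraries of BXD34/TyJ and BXD69/RwwJ, at a mean of 5.19 and 6.24 log2 CPM where the female median was -0.02, and the male library of NZW/LacJ, at -0.29 where the male median was 6.08. Only NZW/LacJ is among the 59 strains with both sexes.

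Levels are given first per transcript length, as the deposited TPM. Bcat2 had 13.002 TPM in the lowest, 59.1 in the median and 132.98 in the highest female library, against 32.5, 70.7 and 157 in males. The groups overlapped over most of their range, as they did for every other gene of the pathway described here. Bckdha ranged from 25.02 through a median of 57.2 to 88.1 TPM in females and from 38.9 through 59.5 to 97.8 TPM in males. Bckdhb, its partner in the decarboxylase, was higher and spread more widely, with 11.9, 151 and 334 TPM in females and 97.2, 180.0 and 398 TPM in males. Dbt was the lowest of the 10, at 8.88, 38.9 and 67.1 TPM in females and 31.1, 51.8 and 70.8 TPM in males. The transacylase core was thus below both decarboxylase subunits in mean level in both sexes.

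Downstream of the complex, Ivd had 23.5, 129.7 and 222 TPM (lowest, median and highest library) in females and 57.4, 135.98 and 242 TPM in males. Acadsb had 14.8, 119 and 206 TPM in females and 59.3, 147 and 229 TPM in males. These dehydrogenases of leucine and isoleucine breakdown had nearly the same mean in females, 121.9 and 122.4 TPM. Hibadh had 29.7, 146 and 212 TPM in females and 105.7, 164 and 210.1 TPM in males, the narrowest relative spread of the 10 in both sexes (coefficient of variation 22.3% and 15.4%). Aldh6a1, the last enzyme specific to valine, was the highest of all, with 24.6, 173 and 346 TPM in females and 93.9, 225 and 349 TPM in males. Pcca had 16.4, 57.6 and 98.5 TPM in females and 48.3, 71.3 and 110.97 TPM in males. Pccb had 22.8, 90.9 and 155 TPM in females and 60.6, 112.2 and 153 TPM in males. The beta subunit of the carboxylase was above the alpha subunit in 66 of the 67 female libraries and in all 74 male libraries.

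**Figure D1:**
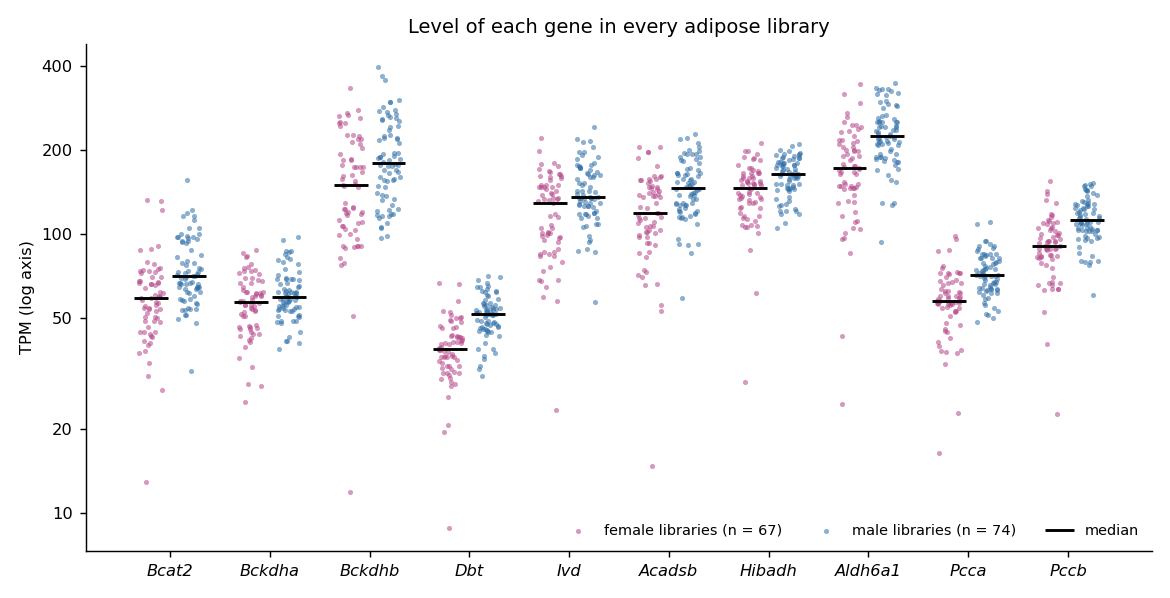
TPM of each of the 10 genes on a log axis, with 1 point per library (67 female and 74 male) and the median of each sex as a black bar. The medians of the males lie above those of the females for all 10 genes while the points overlap, and the female library at the bottom of 9 of the 10 genes is BXD34/TyJ.

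The female library of BXD34/TyJ was the lowest female library for 9 of the 10 genes in TPM, the exception being Bckdha, which was lowest in AXB12/PgnJ. It was the shallowest library of all, and mitochondrially encoded genes took 29.9% of its counts against a female median of 8.60%. On the scale of TMM-scaled CPM its mean over the 10 genes ranked 12 from the bottom among the 67, so its place depended on the scale. Ordered by mean TPM, the genes ran in both sexes from Dbt through Bckdha, Pcca, Bcat2, Pccb, Ivd, Acadsb, Hibadh and Bckdhb to Aldh6a1. Few steps of this order exceeded the spread of the difference within libraries. In females the mean log2 difference was larger than its SD between Dbt and Bckdha (0.54 ± 0.34, SD, n = 67) and between Bcat2 and Pccb (0.62 ± 0.41), and in males between Bcat2 and Pccb (0.61 ± 0.33, SD, n = 74) and between Pccb and Ivd (0.32 ± 0.29). All other neighbours in the order did not differ beyond that spread.

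Sex differences were tested in the 59 strains with both sexes, on TMM-scaled estimated counts, with strain and sex as the terms of edgeR's quasi-likelihood test and p-values adjusted by Benjamini-Hochberg over the 16765 genes that passed the filter on low counts. All 10 passed that filter. All 10 were lower in females at an adjusted p under 0.05, where 29.8% of all tested genes were called lower in females. The median log2 fold change (log2FC, females minus males) was -0.39 over the 10 genes and 0.01 over all genes tested. In the same libraries the 5 adipocyte markers were also lower in females, all 5 at an adjusted p under 0.05 (log2FC from -0.95 for Plin4 to -0.33 for Adipoq), and their mean level was lower in the female library in 48 of the 59 strains. With that level added to the model, 1 of the 10 genes was lower in females (Dbt, log2FC -0.12, adjusted p = 0.0424) and 1 was higher (Hibadh, 0.13, adjusted p = 0.0271), against 24.6% and 24.8% of all genes called in these directions. The other 8 genes were not called in that model and their log2FC lay between -0.12 and 0.09. That level is the mean of these same 5 markers, so their remaining sex differences in this model are bound to balance around 0. Adipoq then had a log2FC of 0.33 and Plin4 one of -0.26. Plin1, Cidec and Fabp4 lay between -0.03 and 0.05. These values are no test of the markers. The covariate did not make each adipocyte marker equal between the sexes. In bulk tissue, fewer adipocytes and less RNA per adipocyte cannot be told apart.

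Bcat2 had 74.1 ± 29.8 CPM in females and 103.7 ± 47.8 in males (SD, n = 59 strains), a log2FC of -0.44 ± 0.08 (SE, adjusted p = 2.37e-06), and was lower in the female of 47 of the 59 strains. Among the BCKDH genes Dbt differed most, with 77.5 ± 23.3 CPM against 106.9 ± 25.4 and a log2FC of -0.46 ± 0.07 (adjusted p = 3.7e-08, lower in 49 strains). Bckdhb had a log2FC of -0.36 ± 0.07 (109.006 ± 40.5 against 141.1 ± 49.2 CPM, adjusted p = 7.54e-06, lower in 47 strains). The alpha subunit showed the smallest difference of the 10. For Bckdha the log2FC was -0.23 ± 0.08 (87.045 ± 33.8 against 101.3 ± 30.8 CPM, adjusted p = 0.00847), and the female was lower in 40 strains. It lost its call with library totals in place of TMM (log2FC -0.12) and without the strain term (-0.19 in the 59 strains, -0.13 in all libraries), while the other 9 genes kept theirs in all 3 settings.

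In the 3 branches after the complex, Aldh6a1 showed the largest difference of the 10 genes, with 379 ± 139.2 CPM in females and 530.4 ± 158 in males (log2FC -0.49 ± 0.08, adjusted p = 1.36e-06) and a lower value in the female of 48 strains. Ivd had a log2FC of -0.36 ± 0.08 (155 ± 59.7 against 203 ± 85.3 CPM, adjusted p = 0.000203, lower in 45 strains) and Acadsb one of -0.34 ± 0.07 (154 ± 43.4 against 198 ± 52.4 CPM, adjusted p = 4.15e-05, lower in 44 strains). The leucine and isoleucine dehydrogenases were thus lower by similar amounts. Hibadh was lower by less, with a log2FC of -0.23 ± 0.07 (173 ± 53.3 against 204 ± 52.9 CPM, adjusted p = 0.00326, lower in 41 strains). Both subunits of the carboxylase were lower by similar amounts. Pcca had a log2FC of -0.43 ± 0.08 (88.4 ± 32.6 against 118.3 ± 35.9 CPM, adjusted p = 7e-06, lower in 48 strains) and Pccb one of -0.42 ± 0.07 (144 ± 51.8 against 191 ± 51.4 CPM, adjusted p = 7.04e-07, lower in 47 strains). With the adipocyte marker level in the model, the log2FC of Bckdha, Bckdhb, Ivd, Acadsb and Hibadh was above 0 and that of the other 5 genes stayed below it.

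**Figure D2:**
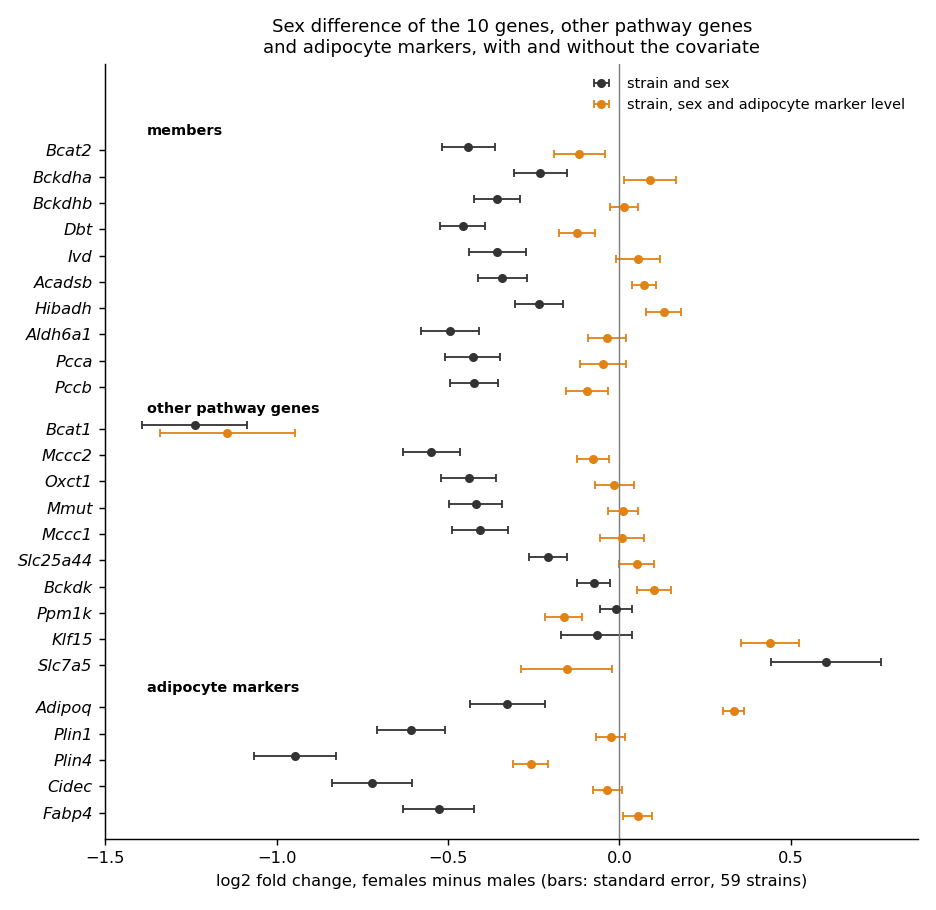
Log2 fold change between females and males (59 strains, bars are standard errors) of the 10 genes (members), 10 other genes of the pathway and 5 adipocyte markers, from the model with strain and sex (dark) and with the adipocyte marker level added (orange). The 10 genes lie between -0.49 and -0.23 in the first model and between -0.12 and 0.13 in the second, while Bcat1 stays below -1 in both.

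Among the 25 other genes of BCAA handling that were looked up, 15 were lower and 1 was higher in females, and 9 were not called. Of all 16765 tested genes, 29.8% were lower and 4759 genes were higher. The largest decrease was that of Bcat1, the cytosolic aminotransferase, with a mean of 9.68 CPM in females and 21.1 in males (log2FC -1.24 ± 0.15, adjusted p = 4e-10). It was lower in the female of 54 strains and also with the adipocyte marker level in the model (log2FC -1.14, adjusted p = 2.33e-06). Mccc2 and Mccc1, the subunits of methylcrotonyl-CoA carboxylase in leucine breakdown, had a log2FC of -0.55 and -0.41 (adjusted p = 1.12e-07 and 2.87e-05). Oxct1, which activates ketone bodies for oxidation, had -0.44 (adjusted p = 5.25e-06), and Mmut, the methylmalonyl-CoA mutase that follows propionyl-CoA carboxylase, had -0.42 (adjusted p = 4.71e-06). All 5 genes of the leucine branch were lower, as were 2 of 3 in the isoleucine branch, 2 of 3 in the valine branch and 3 of 4 in the propionate branch. With the adipocyte marker level in the model none of the genes of these 4 branches was lower, and 1 of the isoleucine and 3 of the propionate branch were higher. Of all 25 genes 3 were lower and 6 higher in that model, where 24.6% and 24.8% of all tested genes were.

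Carriers and regulators of the pathway were mixed. Slc25a44, the mitochondrial BCAA carrier, was lower in females (log2FC -0.21 ± 0.06, adjusted p = 0.00135). Slc7a5, a plasma membrane transporter of large neutral amino acids, was the only gene of the list that was higher (log2FC 0.60 ± 0.16, adjusted p = 0.00113, 11.9 against 7.25 CPM). Bckdk, the kinase that inactivates the BCKDH complex, had a log2FC of -0.08 ± 0.05 (adjusted p = 0.165), and Ppm1k, the phosphatase that reactivates it, had -0.01 ± 0.05 (adjusted p = 0.871). Klf15, a transcription factor that regulates amino acid catabolism, had -0.07 ± 0.10 (adjusted p = 0.597). These 3 regulators did not pass the test. With the adipocyte marker level in the model, Ppm1k was lower (-0.16, adjusted p = 0.00924) and Klf15 was higher in females (0.44, adjusted p = 1.49e-05). Slc25a44 (0.05, adjusted p = 0.429) and Slc7a5 (-0.15, adjusted p = 0.349) lost their calls in that model and changed sign.

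Markers of other cells also moved with sex. The 9 mammary epithelial markers were all higher in females (log2FC from 5.87 to 8.14) and the 4 macrophage markers were all lower (from -0.83 to -0.30). None of the 7 lymphocyte markers was called (log2FC from 0.49 to 0.91), nor was any of the 5 skeletal muscle markers that passed the filter, and of the 5 markers of brown or beige adipocytes 1 was lower (Cpt1b, log2FC -0.41). The part of mammary epithelium and macrophages in the results on the 10 genes was not tested. With the lymphocyte marker level in the model, all 10 genes remained lower in females (share of all genes not given). When the adipocyte marker level was added instead, all 7 lymphocyte markers were lower in females (log2FC from -1.66 to -0.95). The 4 macrophage markers stayed lower and the 9 mammary markers stayed higher in that model.

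A difference between BXD and other strains in the sex effect was not detectable. In the 26 BXD strains with both sexes, set against the other strains, none of the 10 genes and 0% of all 16765 genes had an adjusted p under 0.05 for the interaction of sex and strain set in edgeR, and limma-voom called none either. At an unadjusted p under 0.05, edgeR found 0 of the 10 genes and 1.87% of all genes (314 genes). With so low a share over all genes, 0 of 10 does not set the 10 genes apart. The difference of the log2FC (BXD minus others) lay between 0.10 and 0.21 over the 10 genes, with 95% intervals reaching from -0.19 to 0.54.

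The 10 genes varied together from library to library. Pearson's r of log2 CPM was computed for each of the 45 pairs in each sex (90 relations, two-sided permutation tests with 100000 resamples, Benjamini-Hochberg adjustment over the 90). In females r ranged from 0.50 to 0.93 with a median of 0.80, and Spearman's rho from 0.44 to 0.93. In males r ranged from 0.32 to 0.94 with a median of 0.77, and rho from 0.29 to 0.94. All 90 had an adjusted p under 0.05, the highest being 0.00555 for r and 0.0123 for rho, and the lowest r was 0.25 in males and 0.43 in females after the 2 libraries farthest from the median were left out of each relation. Of all 140524230 pairs of tested genes, 9.6% in females and 16.9% in males had an r at least as high as the lowest of the 45 pairs. The scale mattered for the size. With library totals the median r was 0.64 in both sexes, and with log2(TPM + 1) it was 0.75 in females and 0.54 in males. The lowest r fell to 0.38 and 0.43 on these scales in females. In males some relations of Bckdhb were near 0 on these scales, with r = 0.05 for Acadsb and 0.08 for Aldh6a1 with library totals and r = -0.03 for Ivd and 0.09 for Acadsb with log2(TPM + 1).

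The pair with the highest r in males was Acadsb and Aldh6a1 (r = 0.94, rho = 0.94, n = 74, and r = 0.93 in the 67 females), although they belong to the isoleucine and the valine branch. In females Dbt and Hibadh (r = 0.93, rho = 0.92, n = 67) and Hibadh and Pcca (r = 0.93, rho = 0.93) had nearly the same highest r. Each of these pairs had a permutation p-value of 1e-05, the smallest that 100000 resamples can give. The highest female pair depended on the scale. It was Acadsb and Aldh6a1 with library totals (r = 0.90) and Hibadh and Aldh6a1 with log2(TPM + 1) (r = 0.93). Bckdhb stood out at the other end. Its median r with the other 9 genes was 0.65 in females and 0.44 in males, where the other 9 genes had medians from 0.74 to 0.85. Its lowest r was with Aldh6a1 in males (0.32, adjusted p = 0.00555). Bcat2 had a median r of 0.64 in females, as low as that of Bckdhb, and 0.74 in males.

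**Figure D3:**
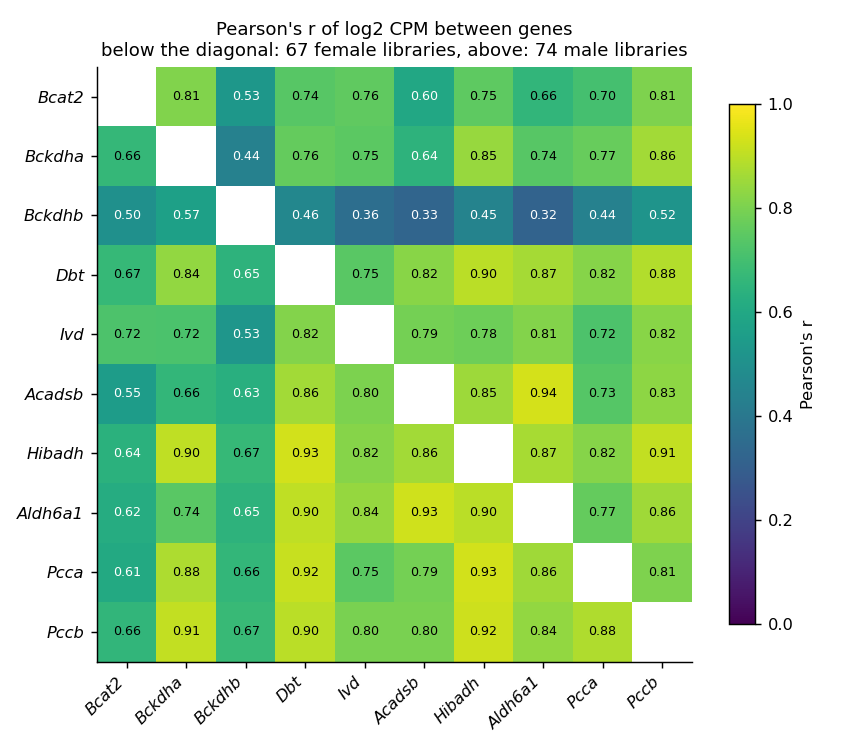
Pearson's r of log2 CPM for every pair of the 10 genes, with the 67 female libraries below the diagonal and the 74 male libraries above it, on a color scale from 0 to 1. The row and column of Bckdhb are the darkest, with r from 0.50 to 0.67 in females and from 0.32 to 0.53 in males.

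The level of the 10 genes also moved with markers of cell content. Each gene was related within each sex to the mean log2 CPM of the 5 adipocyte markers, to that of the 7 lymphocyte markers (Cd79a, Cd79b, Ms4a1, Cd3e, Cd3d, Cd3g and Cr2) and to the mitochondrially encoded share of counts, which makes 60 relations. With the adipocyte level r was positive for all 10 genes in both sexes, from 0.46 (Bcat2) to 0.88 (Acadsb) in females and from 0.43 (Bckdhb) to 0.83 (Acadsb) in males, all with an adjusted permutation p of at most 0.000186. Of all 16765 genes tested by sex, 24.9% in females and 25.5% in males had an r with the adipocyte level at least as high as the lowest of the 10. Spearman's rho ran from 0.45 to 0.86 and from 0.42 to 0.82, and without the 2 farthest libraries r ran from 0.43 to 0.85 and from 0.39 to 0.81. With the lymphocyte level r was negative throughout, from -0.70 (Acadsb) to -0.32 (Bcat2) in females, where all 10 passed, and from -0.61 (Acadsb) to -0.22 (Bcat2) in males, where 9 passed and Bcat2 did not (adjusted p = 0.0668), while 31.4% and 36.9% of all genes had an r as far below 0 as the weakest of the 10 that passed. With the mitochondrially encoded share r lay between -0.01 (Bckdhb) and 0.60 (Bckdha) in females and between 0.21 (Acadsb) and 0.60 (Bckdha) in males, and 7 and 9 of the 10 genes passed, where 15.1% and 13.6% of all genes reached the r of the weakest of these. Their part in the co-variation of the 10 genes was not tested.

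The female library of AXB12/PgnJ had the lowest mean of the 10 genes of all libraries, 5.44 log2 CPM against a female median of 6.94. It also had the lowest adipocyte marker level, 8.72, together with a lymphocyte level of 7.08 against a female median of 2.50, a macrophage level of 8.45 against 6.10 and a skeletal muscle level of 5.30 against -0.13. Without this strain all 10 genes were still lower in females. The lowest male library was that of NZW/LacJ, with 6.52 log2 CPM against a male median of 7.29, an adipocyte level of 9.93, a lymphocyte level of 6.69 and a mammary level of 5.06 where the male median was -2.39. Without NZW/LacJ all 10 genes were likewise lower in females. Of the 48 strains in which the adipocyte level was lower in the female, the mean of the 10 genes was lower in the female of 43, with a median log2 difference of -0.47. Of the 11 strains in which it was higher in the female, the mean of the 10 genes was lower in the female of 3, with a median difference of 0.11. The part of the adipocyte level in these counts was not tested, and no share of all genes is given for them.

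**Figure D4:**
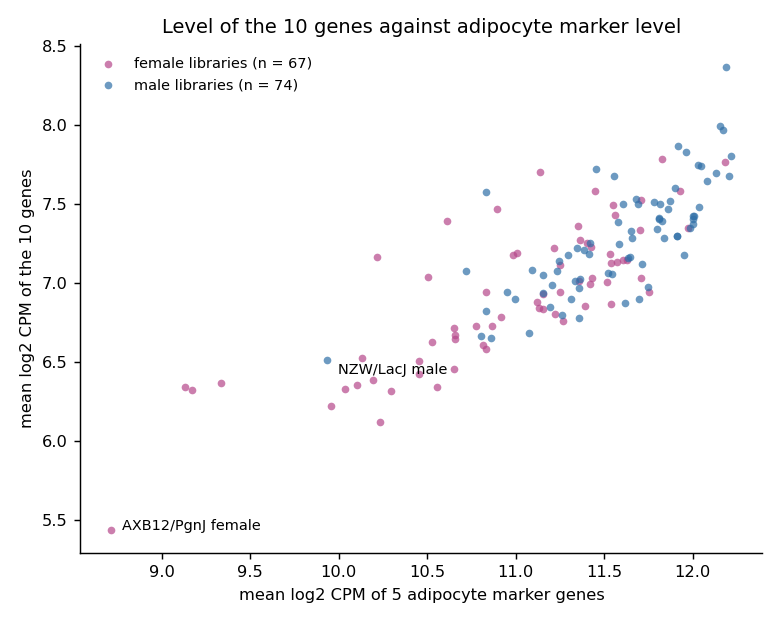
Mean log2 CPM of the 10 genes against mean log2 CPM of the 5 adipocyte markers, with 1 point per library and the sexes in separate colors. Both sexes lie along the same rising band, males toward its upper end, and the female library of AXB12/PgnJ lies at the bottom left with 5.44 and 8.72.

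Genes outside the list were ranked by how closely they followed the 10. Likeness was the lower, of females and males, of the Pearson's r between a gene's log2 CPM and the mean of the standardised log2 CPM of the 10 genes, over 67 and 74 libraries and 16528 named genes. The 10 genes most like them were Acat1, Hadh, Gstk1, Acad8, Echs1, Mccc1, Pnpla2, Pgm1, Aldh2 and Trap1, with a lower r from 0.92 (Acat1) to 0.89 (Trap1). Acat1, Acad8, Echs1 and Mccc1 are enzymes of BCAA breakdown and were on the list of other pathway genes. Hadh is a dehydrogenase of fatty acid oxidation, Gstk1 a mitochondrial and peroxisomal glutathione transferase, Pnpla2 the adipose triglyceride lipase, Pgm1 a phosphoglucomutase, Aldh2 the mitochondrial aldehyde dehydrogenase and Trap1 a mitochondrial chaperone. Far below these, Bckdk, the kinase of the complex, was at rank 120 with a lower r of 0.81. Klf15 was at rank 587 with 0.70. Bcat1 had r = -0.11 in females and -0.09 in males, and Ppm1k had -0.30 in females and 0.07 in males. Slc7a5 ran opposite to the 10 genes, with r = -0.66 in females and -0.73 in males. Of the adipocyte markers, the lower r was 0.81 for Plin1, 0.76 for Adipoq, 0.74 for Fabp4, 0.53 for Plin4 and 0.48 for Cidec.

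Strain was tested with all strain coefficients of the same fit over the 59 strains, in which each strain has its female and its male library as replicates. Of the 10 genes 5 differed between strains at an adjusted p under 0.05, where 71.2% of all tested genes did. They were Bckdhb (F = 2.95, adjusted p = 0.000143), Bcat2 (2.26, 0.00298), Ivd (1.86, 0.0167), Pccb (1.77, 0.0247) and Bckdha (1.69, 0.0348). For Dbt, Acadsb, Hibadh, Aldh6a1 and Pcca the adjusted p lay between 0.153 and 0.345. With the adipocyte marker level in the model all 10 differed between strains, where 80.8% of all genes did, and the F of Bckdhb was 9.33 (adjusted p = 8.14e-14) against 1.95 to 3.38 for the other 9. With limma-voom 3 of the 10 were called, and the share of all genes called there is not given.

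The extremes recurred across genes. Of the 59 strains, SJL/J had the lowest mean TPM of both sexes for Dbt, Ivd, Acadsb, Hibadh, Aldh6a1 and Pccb, and 129X1/SvJ had the highest for Bcat2, Dbt, Aldh6a1, Pcca and Pccb. These strains also lay near the ends of the adipocyte marker level, with 12.18 and 12.22 log2 CPM in the female and the male of 129X1/SvJ, the highest of each sex, and 9.14 and 10.72 in those of SJL/J, the second lowest of each sex. The lymphocyte level was -0.49 and -0.82 in 129X1/SvJ and 6.99 and 6.42 in SJL/J, and the part of these markers in the strain extremes was not tested. Aldh6a1 was at 96.7 TPM in the female and 93.9 in the male library of SJL/J, and at 346 and 292 TPM in those of 129X1/SvJ. Ivd was lowest in SJL/J (79.9 TPM in the female, 57.4 in the male) and highest in BXD74/RwwJ (222 and 219). Bcat2 was lowest in BXA8/PgnJ (27.8 and 32.5 TPM) and Bckdha in BXD62/RwwJ (33.4 and 48.3 TPM), and Bckdha was highest in CXB13/HiAJ (73.01 and 97.8 TPM). Bckdhb was lowest in BXD50/RwwJ (91.03 and 97.2 TPM) and highest in CBA/J (334 and 370.1 TPM). Both sexes of a strain lay on the same side of their sex's median in 47 of the 59 strains for Bckdhb, in 41 for Bcat2 and for Ivd, and in 29 for Aldh6a1.

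Because the 10 genes moved together, each was also expressed relative to the mean of the other 9 in its library, a measure that does not depend on the scaling of the library. This measure and the subunit ratios were chosen after the values were seen. Over the 59 strains the female and male values were related for 9 of the 10 genes (14 relations in all with 4 subunit ratios, two-sided permutation tests). Of all 16765 genes, each taken relative to the mean of the 10, 30.8% had an r at least as high as the weakest of these 9. Pearson's r was 0.78 for Bckdhb (rho = 0.79), 0.72 for Ivd (rho = 0.68), 0.69 for Bcat2 (rho = 0.69) and 0.62 for Hibadh (rho = 0.61), each with an adjusted p of 2e-05. It was 0.15 for Pccb (rho = 0.25, adjusted p = 0.256), which missed the threshold, and 0.29 for Acadsb (rho = 0.24, adjusted p = 0.0262 for r and 0.0683 for rho). Aldh6a1, Dbt, Pcca and Bckdha lay between, from 0.57 to 0.47. Without the 2 farthest strains r was 0.78 for Bckdhb, 0.65 for Ivd, 0.65 for Bcat2 and 0.69 for Hibadh.

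Within the BCKDH complex the ratio of Bckdhb to Dbt followed the strain. The TPM ratio was 1.34 in the lowest, 3.69 in the median and 9.17 in the highest female library, and 1.93, 3.75 and 8.03 in males. The lowest female value was that of BXD34/TyJ, the shallowest library and 1 of the 3 at odds with their sex label, and the next lowest was 1.99. Its log2 CPM form had, between the sexes of a strain, r = 0.78 (rho = 0.77, adjusted p = 2e-05, r = 0.75 without the 2 farthest strains), and its log2 TPM form had r = 0.77. The ratio of Bckdhb to Bckdha had r = 0.65 (rho = 0.68, adjusted p = 2e-05, 0.73 without the 2 farthest). Ratios that leave out Bckdhb followed the strain less closely in these values, with r = 0.39 for Bckdha to Dbt (rho = 0.38, adjusted p = 0.00266) and r = 0.44 for Pcca to Pccb (rho = 0.44, adjusted p = 0.000789), and the difference between these r values was not tested. The median TPM ratio of Pcca to Pccb was 0.63 in both sexes.

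**Figure D5:**
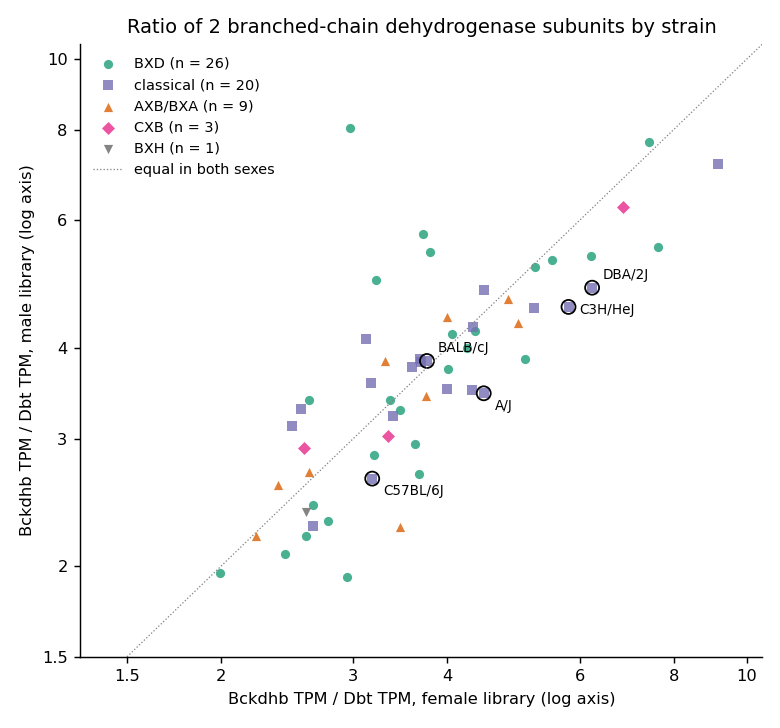
Ratio of Bckdhb TPM to Dbt TPM in the female (x) and male (y) library of each of the 59 strains, on log axes, colored by strain set. C57BL/6J, DBA/2J, A/J, BALB/cJ and C3H/HeJ are circled, and the line of equal ratios is dotted. DBA/2J and C3H/HeJ lie above 4.5 in both sexes and C57BL/6J below 3.2 in both, and the BXD strain farthest from the line is BXD38/TyJ, with 2.97 in the female and 8.03 in the male.

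The parents of the BXD set and A/J, BALB/cJ and C3H/HeJ, with 1 library per sex, differed along the same axis. Bckdhb was at 120.4 TPM in the female and 136.9 in the male of C57BL/6J and at 267 and 258 TPM in those of DBA/2J, while Dbt was at 37.9 and 51.8 TPM in C57BL/6J and at 42.9 and 53.2 TPM in DBA/2J. The Bckdhb to Dbt ratio was therefore 3.18 and 2.64 in C57BL/6J and 6.23 and 4.84 in DBA/2J. It was 5.797 and 4.56 in C3H/HeJ, 4.47 and 3.46 in A/J, and 3.76 and 3.84 in BALB/cJ. Of the BXD strains, 19 of 32 female and 17 of 34 male libraries lay between their parents in this ratio, 10 and 8 lay below both and 3 and 9 above both. Ivd went the other way between the parents, with 150.0 and 143 TPM in C57BL/6J against 86.2 and 95.1 TPM in DBA/2J, but its difference was smaller in CPM, with 159 and 162 against 131.04 and 115.2. With 1 library each, these strain differences have no replicate within sex and were not tested.

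For Bckdhb the number of counts per TPM, which follows the length of the transcripts to which its reads were assigned, varied between libraries. Set against the median gene of each library, its log2 value had an SD of 0.21 over all libraries, and 6.04% of 5451 well-counted genes varied more. It was lowest in the male of BXD12/TyJ (-2.02 against a median of -1.36), the library with the highest Bckdhb TPM, and was -1.21 and -1.42 in the female and male of C57BL/6J and -1.46 and -1.24 in those of DBA/2J. For Ivd it was -0.63 and -0.66 in C57BL/6J and -0.27 and -0.42 in DBA/2J. The same SD was 0.19 for Ivd, 0.16 for Pcca, 0.15 for Acadsb and at most 0.08 for the other 6 genes. The part of transcript assignment in the strain pattern was not tested beyond the log2 CPM and log2 TPM forms given above.

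Strain sets as a whole did not separate the 10 genes. None of them was called between BXD and classical strains in females, where 12.4% of 20270 tested genes were, or in males, where 8.63% of 19283 genes were (edgeR's quasi-likelihood test, strains as replicates). None was called between AXB/BXA and BXD strains either, against 2.25% of genes in females and 2.46% in males. At an unadjusted p under 0.05 the count was 0 of 10 in all 4 comparisons, and limma-voom over both sexes called 0 as well. The share of all genes is not given for these counts, so they cannot be set against it. BXD minus classical log2FC ran from -0.20 (Bcat2) to 0.19 (Ivd) in females, with 95% intervals within -0.47 and 0.46, and from -0.15 to 0.16 in males, within -0.36 and 0.37. AXB/BXA minus BXD log2FC ran from -0.36 to 0.03 in females and from -0.26 to 0.17 in males. Bckdhb was the lowest in both, at -0.36 ± 0.21 (SE, adjusted p = 0.365) and -0.26 ± 0.16 (adjusted p = 0.538). The AXB/BXA females include the library of AXB12/PgnJ, the lowest of all libraries in the mean of the 10 genes. These contrasts were not refitted without that library.

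Bckdhb had a median of 149.99 TPM in the 32 female and 183 TPM in the 34 male BXD libraries, 154.7 and 196 in classical strains, and 122.8 and 157 in the AXB/BXA set. All these ranges overlapped. Bcat2 had medians of 55.1 and 68.7 TPM in BXD, 60.1 and 69.4 in classical and 59.3 and 70.6 in AXB/BXA strains. In the 3 female and 3 male CXB libraries, which were not tested against the other sets, Bcat2 was at 74.1, 78.4 and 122.3 TPM in females and at 70.8, 98.6 and 112.2 TPM in males. Ivd was at 147, 150.3 and 176 TPM in CXB females and at 136.3, 164 and 242 TPM in CXB males. The 2 female BXH libraries had 57.1 and 66.3 TPM of Bcat2 and the 3 males 66.5, 73.2 and 116.8 TPM. These values lay inside the range of the classical strains in each sex, except the CXB male with 242 TPM of Ivd, which was the highest of all male libraries.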

How the data were processed

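Stranded mRNA libraries of subcutaneous adipose tissue were quantified by the authors with kallisto (version 0.46.1 in the submitters' processing notes), using transcripts of GRCm38 from Ensembl release 97, and tximport gave values per gene. Their deposited estimated counts are unscaled, and 30.3% of the entries hold a fractional part. The authors' TPM correct for transcript length and library total, and so carry no depth. Symbols and coordinates came from GENCODE M21 (35935 of 36558 genes).

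Estimated counts were rounded and, for each comparison, filtered with filterByExpr, scaled by TMM and tested with edgeR 4.0.16 (R 4.3.3) at an adjusted p under 0.05. CPM are TMM-scaled, with a prior count of 2 on the log2 scale. Sex was fitted as ~ Strain + Sex, because the libraries of a strain share their genotype by the labels (mean correlation of deviations 0.41 within a strain and -0.01 between strains, above 0.1 in 45 of 59 pairs). Strain sets were compared within each sex. Limma 3.58.1, DESeq2 1.42.0, other scalings, filters, samples and marker covariates were tried as alternatives. Permutation tests were two-sided with 100000 resamples. Correlations and plots were made in Python 3.11.15 (pandas 2.3.3, numpy 2.4.6, matplotlib 3.10.9, scipy 1.17.1).

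The members, the other pathway genes, the marker lists and the motifs were chosen with earlier results of these data known. Of the lymphocyte list 1 marker is not reported here, and its level is the mean of the other 7. The text names all members, Bcat1, Bckdk, Ppm1k, Slc25a44 and Klf15, up to 5 other pathway genes with the largest called change in each direction, and the 10 genes of like pattern. It also names C57BL/6J, DBA/2J, A/J, BALB/cJ and C3H/HeJ and the extreme strains of a member. Families were read from the strain names. No pair of libraries was identical. P-values between sexes measure the spread between single mice of 59 strains, and intervals of 95% are the log2FC with 1.96 standard errors on either side. In counts simulated for the sex comparison, 66% of 100 genes with a log2 change of 0.25 and 99% of 100 with 0.5 were called. The simulated spread within strains was the same for all genes and was not taken from the 10 genes, so these shares may not hold for them. At the median depth 3 counts correspond to 0.0992 CPM, which covers counting error only.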

Additional observations from a re-analysis of the deposited data

Results flagged for a closer look

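In the AXB/BXA females, the single group of 4 to 10 samples among the strain sets, the library of AXB12/PgnJ lay far below the other 8 for 5 of the 10 genes by Dixon's test at the 95% level, which chance alone meets in about 1 of 20 groups. Dbt was at 19.5 TPM where the others lay between 35.5 and 50.1, and Hibadh at 61.6 TPM where they lay between 125 and 173. Aldh6a1 was at 43.2 TPM against 149 to 247, Pcca at 22.9 TPM against 51.1 to 76.7, and Pccb at 40.6 TPM against 81.6 to 110.6. The 5 values come from the same library and are not independent of each other. Its adipocyte, lymphocyte, macrophage and skeletal muscle marker levels are given above with its mean over the 10 genes, and their part in these values was not tested.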

How the results depend on the processing

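The count of 10 genes lower in females was 10 or 9 in 14 of the 15 other settings, and none of the 10 was higher in them. The share of all genes called is not given for each of these settings. The exception was the adipocyte marker level as a covariate, with 1 lower and 1 higher, where the log2FC of Bckdha (0.089), Bckdhb (0.014), Ivd (0.054), Acadsb (0.072) and Hibadh (0.13) turned above 0. In the other 14 settings each of the 10 genes stayed below 0, and Bckdha alone lost its call, in 3 of them. In the 59 strains with no replicate block, that is without pairing the libraries of a strain, Bckdha had a log2FC of -0.19, and 9 of 10 genes were lower. Strain differences were called for 3 of the 10 genes with limma-voom and for 10 with the adipocyte covariate, against 5. The median r between the genes was 0.64 in females with library totals and 0.54 in males with log2(TPM + 1). With library totals the median log2FC of all genes moved from 0.01 to 0.12, and that of the 10 genes stayed 0.40 below it; 2774 genes were then lower and 7410 higher in females, against 4988 and 4759 with TMM. The 0 calls between strain sets and for the interaction held in every setting tried. The lymphocyte covariate, the omission of AXB12/PgnJ and the log2 TPM form of the relative levels were chosen after seeing the data. With 1 library per sex and strain, mouse and strain cannot be told apart within a sex. In counts simulated for BXD against classical females, 56.8% of genes with a log2 change of 0.5 and 0% of those with 0.25 were called. Differences of 0.25 between these 2 groups were thus not detectable. The simulated spread within strain sets was the same for all genes and was not taken from the 10 genes. Other strain sets were not simulated. Leaving out single strains in turn was not run beyond NZW/LacJ and AXB12/PgnJ, and AXB12/PgnJ was left out only of the sex and strain fits.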
